A study of Rattus norvegicus with 6 samples.

Results

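The AP-1 and EGR immediate early factors examined here are 10 transcription factor genes, namely Fos, Fosb, Fosl1 and Fosl2 of the FOS family, Jun, Junb and Jund of the JUN family, Atf3, and the zinc finger genes Egr1 and Egr3. They were picked by symbol out of the 31368 genes of the deposited count table, each symbol occurring once, and 9 of the 10 passed the filter on low counts and were tested. The table holds 6 libraries of renal tissue from wild-type male Sprague-Dawley rats, 3 labelled Sham (the controls) and 3 labelled CKD, for chronic kidney disease. The design text gives an age of 8 weeks for the rats in which the disease model was set up, while the procedure behind the model was not stated. Whether each library stands for an animal of its own was not stated either, and p-values here can cover no more than the spread among 6 libraries, part of which may be technical. The libraries held 15918035 to 17503644 assigned counts.

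FOS and JUN proteins carry a basic region that binds DNA and a leucine zipper through which they pair, and such pairs make up the transcription factor AP-1. JUN proteins can pair with one another, FOS proteins need a JUN partner, and ATF3 is a related zipper protein that is induced by stress and often represses. EGR proteins bind a GC-rich site through zinc fingers. Most of these genes belong to the immediate early class: growth factors, stretch, ischaemia and cell stress switch on their transcription within minutes through MAP kinases and the serum response factor, and their short-lived messages decay again soon afterwards. In the kidney they are known as early markers of tubular injury, and they are also known to respond to the handling of tissue.

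Between CKD and Sham, 0 of the 9 tested members passed an adjusted p of 0.05 in edgeR's quasi-likelihood test, where 3.82% of all 15371 tested genes did. At an unadjusted p under 0.05 there were 4 members (Fosl2, Jun and Atf3 with lower values in CKD and Egr3 with higher ones), against 23.8% of all tested genes. DESeq2 called those 4 members (1 higher and 3 lower), against 16.3% of the genes it tested (8.99% higher and 7.28% lower), but it gave Fos no adjusted p. With limma-voom 0 members passed, against 1.27% of all tested genes. In edgeR, Fosl2 alone among the members passed, as lower in CKD, with RLE factors (1.22% of all genes lower), with no low count filter (1.13%) and with mitochondrial genes removed (1.14%), where 3.47%, 3.3% and 3.35% passed in either direction. With library totals alone Egr3 alone passed (14.5% of all genes, 13.3% higher), and without Sham 1 both did (10.8%, with 4.96% higher and 5.8% lower). No member passed without Sham 2, Sham 3, CKD 1, CKD 2 or CKD 3, where 0.0127%, 0.0442%, 0%, 0% and 2.61% of all genes did, or with a replicate block (0.0651%). The ranges of the groups were apart in 3 members, lower for Fosl2 and Jun and higher for Egr3, where 31.2% of all tested genes did not overlap, so the share of 33.3% is near that of the whole table. The median log2 fold change of the 9 members was -0.55, beside -0.01 over all tested genes, with 6 negative and 3 positive values. It was -0.13 with library totals alone, where the median of all genes moved by 0.42, and -0.30, -0.27 and -0.26 without Sham 3, CKD 1 and CKD 3. Because the tissue is bulk, fewer cells of a type and less RNA per cell cannot be told apart in any of these values.

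**Figure D1:**
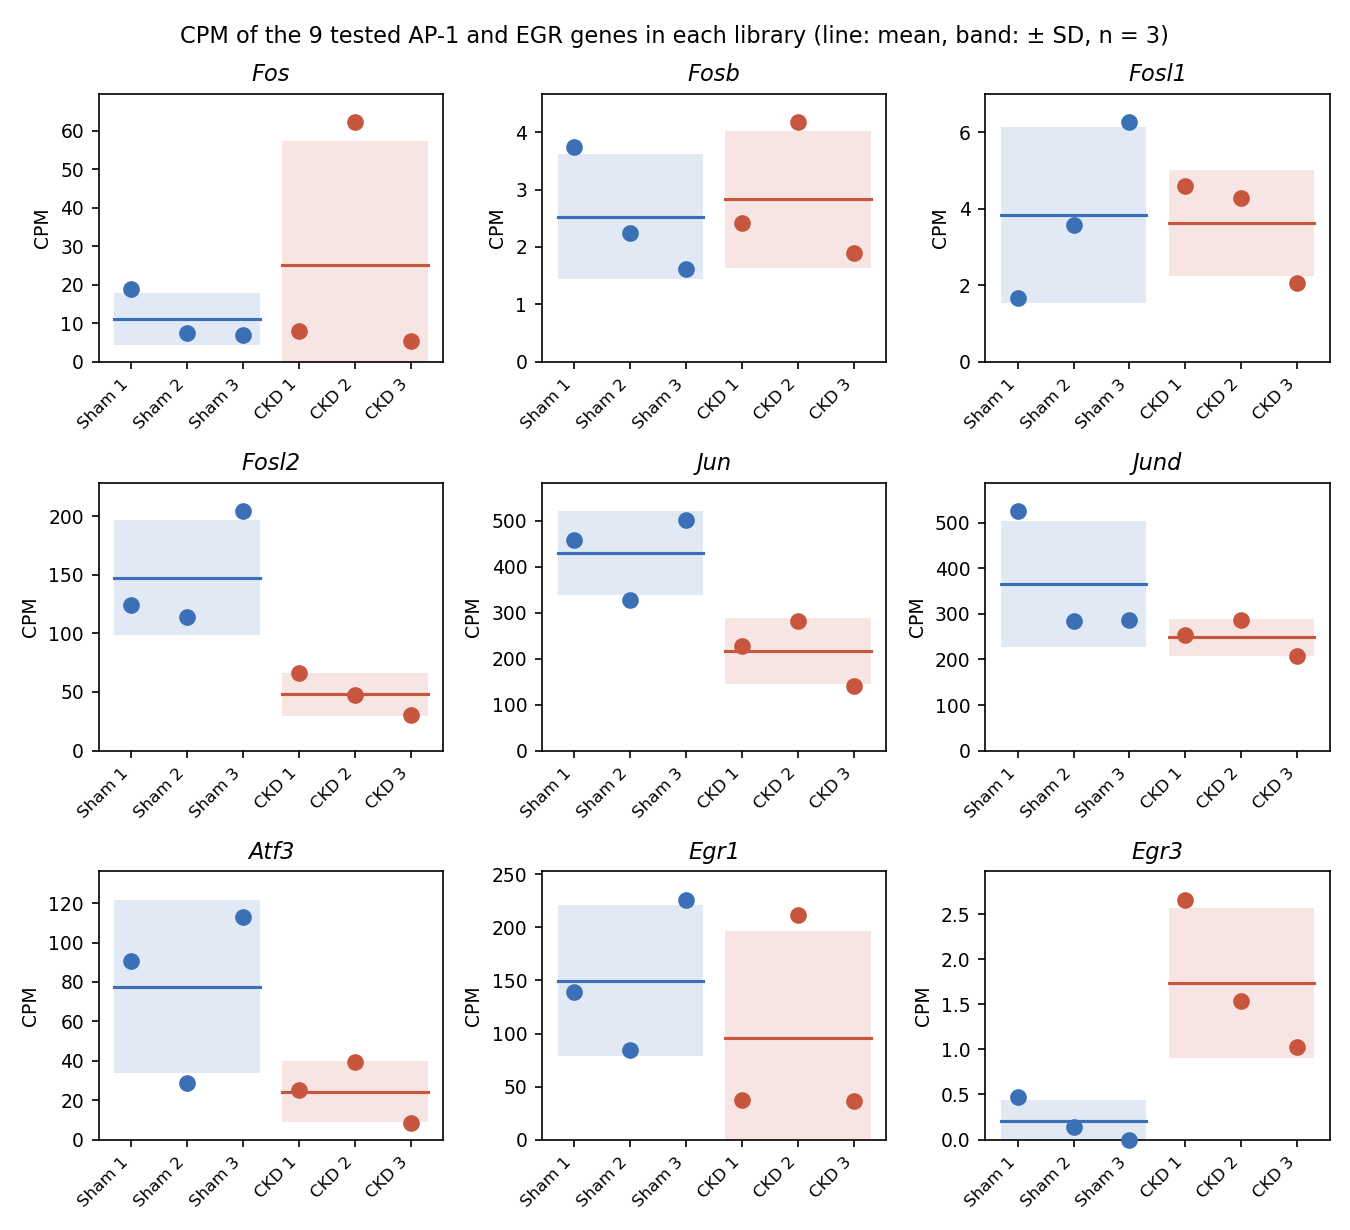
CPM (counts scaled to library size and TMM factor) of the 9 tested members in each library, blue for Sham and red for CKD, with the mean as a line and the SD as a band cut at 0 (n = 3 per group). Fosl2, Jun and Egr3 do not overlap between the groups, and the Fos and Egr1 values of CKD 2 (62.2 and 212 CPM) stand far above those of CKD 1 and CKD 3.

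Per kilobase of the authors' gene length, which is needed to set genes beside each other, Jund had the highest mean level in Sham at 218 ± 82.6 CPM per kilobase (mean ± SD, n = 3 here and below). Jun followed at 95.2 ± 20.3, and the next 3 levels, Egr1 at 48.1 ± 22.9, Atf3 at 40.9 ± 23.2 and Fosl2 at 28.5 ± 9.53 CPM per kilobase, lay within their spread. Fos stood at 6.93 ± 4.25, Fosl1 at 1.08 ± 0.65, Fosb at 0.676 ± 0.291 and Egr3 at 0.067 ± 0.079 CPM per kilobase, where Fosl1 and Fosb lay within their spread. In CKD the order was Jund (148 ± 24.0 CPM per kilobase), Jun (48.1 ± 16.0), Egr1 (30.6 ± 32.4), Fos (15.85 ± 20.2), Atf3 (12.9 ± 8.18), Fosl2 (9.25 ± 3.48), Fosl1 (1.02 ± 0.389), Fosb (0.756 ± 0.319) and Egr3 (0.576 ± 0.276). From Egr1 to Fosl2 these CKD levels again lay within their spread, as did the last 3.

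Fosl2, which encodes the FOS relative FRA-2, had 124, 114 and 204 CPM in Sham 1, 2 and 3 and 66.2, 47.1 and 30.3 CPM in CKD 1, 2 and 3. Every CKD library lay under every Sham library, also when counts were scaled by library totals alone. Its log2 fold change of -1.62 ± 0.36 (SE), a mean 3.08 times higher in Sham, came closest of the members to the threshold (edgeR adjusted p = 0.0523, with 0.000405 to 0.208 over the alternatives). It passed without Sham 1 (-1.78, edgeR adjusted p = 0.0367), with no low count filter (0.0305) and, narrowly, with RLE factors or without mitochondrial genes (edgeR adjusted p = 0.0481 and 0.0482). The build of the deposited coordinates is uncertain: the processing notes name Rnor_6.0, but the last gene end on chromosome 1, at 260398790, lies close to the end of that chromosome in a later rat assembly and well short of it in Rnor_6.0. In these coordinates Fosl2 lies on the minus strand of chromosome 6 from 24300956 to 24320034.

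Fos, the founding member and partner of JUN in the classical AP-1 pair, had 18.8, 7.34 and 6.90 CPM in Sham 1, 2 and 3 and 8.06, 62.2 and 5.28 CPM in CKD 1, 2 and 3. A single library, CKD 2, stood at 9.33 times the mean of the other CKD libraries, a ratio larger than that of 99.9% of all tested genes, while CKD 1 and CKD 3 lay among or under the Sham values. The log2 fold change of 1.19 ± 0.92 (edgeR adjusted p = 0.469) turned to -0.72 without CKD 2 (edgeR adjusted p = 0.602). DESeq2 gave Fos a log2 fold change of 1.13 but no adjusted p. The coefficient of variation was 127.5% in CKD and 61.3% in Sham. Fos lies on the plus strand of chromosome 6 from 105121170 to 105124036 in the deposited coordinates.

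The other FOS genes were scarce. Fosb, best known for its lasting isoform in neurons, had 3.73, 2.24 and 1.62 CPM in Sham 1, 2 and 3 and 2.41, 4.17 and 1.90 CPM in CKD 1, 2 and 3. Fosl1, which encodes FRA-1, had 1.67, 3.56 and 6.26 CPM in Sham 1, 2 and 3 and 4.58, 4.27 and 2.05 CPM in CKD 1, 2 and 3. The groups overlapped in both genes, and the log2 fold changes were 0.16 ± 0.50 and -0.07 ± 0.56 (edgeR adjusted p = 0.877 and 0.951). Their signs are not settled: that of Fosb turned without Sham 3 or CKD 2 (-0.14 and -0.23), and that of Fosl1 turned without Sham 3 or CKD 3 (0.40 and 0.22) and with library totals alone (0.34). The row of Fosl1 overlaps that of Ccdc85b, on the opposite strand, by 1073 bases, and Ccdc85b is listed at 0 in every library.

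Jun, the central AP-1 subunit, had 459, 327 and 503 CPM in Sham 1, 2 and 3 and 228, 283 and 139.9 CPM in CKD 1, 2 and 3. All CKD libraries lay under all Sham libraries, but the gap between Sham 2 and CKD 2 was narrow, and with library totals alone the groups overlapped. The log2 fold change was -0.99 ± 0.34 (edgeR adjusted p = 0.132), or -0.57 with library totals alone (edgeR adjusted p = 0.286). DESeq2 called it (adjusted p = 0.0203).

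Jund, the JUN gene that is expressed steadily in resting tissue rather than by induction, had 525, 285 and 286 CPM in Sham 1, 2 and 3 and 253, 287 and 207 CPM in CKD 1, 2 and 3. Sham 1 stood above the rest, and the other 5 libraries lay in one range. For Jund the fitted log2 difference was -0.55 ± 0.33 (edgeR adjusted p = 0.344), and it was -0.24 without Sham 1 and -0.13 with library totals alone. Its coefficient of variation in CKD, 16.2%, was the smallest among the members.

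Junb, an inducible JUN protein, could not be assessed. Its row, annotated as a pseudogene on chromosome 19 from 23176294 to 23178035, is listed at 0 counts in all 6 libraries, which by counting alone would allow up to 0.145 to 0.211 CPM (3 counts per library). The whole of that interval, 1742 bases, lies inside a long non-coding RNA row on the opposite strand (ENSRNOG00000065682, from 23175205 to 23178490), whose annotated protein match is JunB and which held 8, 9 and 6 counts in Sham 1, 2 and 3 and 16, 8 and 12 in CKD 1, 2 and 3. No source used here gives the strand setting for counting, and reads of these rows cannot be told apart, and the 0 is no measurement of Junb.

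Atf3 had 90.9, 28.5 and 113 CPM in Sham 1, 2 and 3 and 25.2, 39.4 and 8.45 CPM in CKD 1, 2 and 3. Sham 1 and Sham 3 lay above all CKD libraries, while Sham 2 fell between CKD 1 and CKD 2, so the groups overlapped. The log2 fold change of -1.67 ± 0.64 (edgeR adjusted p = 0.17) was the largest negative value among the members and ran from -2.20 without CKD 2 to -1.26 without CKD 3. DESeq2 called it (adjusted p = 0.0433).

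Egr1, a zinc finger factor with target genes in growth and matrix production, had 139, 84.3 and 226 CPM in Sham 1, 2 and 3 and 37.5, 212 and 36.5 CPM in CKD 1, 2 and 3. As with Fos, CKD 2 stood apart, at 5.73 times the mean of the other CKD libraries (a ratio above that of 99.9% of all tested genes), and it reached the level of Sham 3. The log2 fold change of -0.65 ± 0.72 (edgeR adjusted p = 0.628) was -2.01 without CKD 2 (edgeR adjusted p = 0.168) and -0.26 without CKD 1 or without CKD 3. On chromosome 18 the row runs from 26462981 to 26466766 on the plus strand in the deposited coordinates.

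Egr3, a relative of Egr1 known from muscle spindles, lymphocytes and neurons, was the rarest member. It had 7, 2 and 0 counts in Sham 1, 2 and 3 against 55, 31 and 20 in CKD 1, 2 and 3, or 0.467, 0.14 and 0 CPM against 2.65, 1.54 and 1.02 CPM. Every CKD library was above every Sham library, also with library totals alone. The 0 in Sham 3 allows up to 0.211 CPM by counting alone. The log2 fold change of 3.04 ± 0.93 (edgeR adjusted p = 0.102) rests on 9 counts in all of Sham and ran from 2.42 without Sham 3 to 4.45 without Sham 1, where it passed (edgeR adjusted p = 0.0461). It also passed with library totals alone (edgeR adjusted p = 0.0464) and in DESeq2 (adjusted p = 0.0183).

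**Figure D2:**
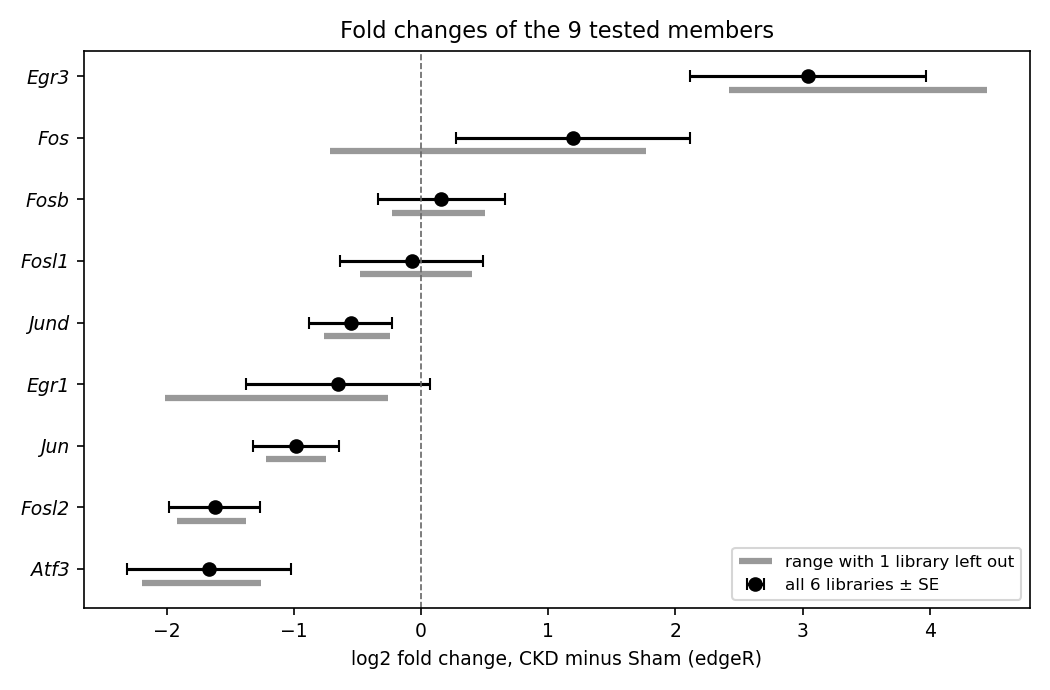
Log2 fold change (CKD minus Sham) of the 9 tested members with all 6 libraries (points, bars ± SE) and the range of values when 1 library is left out in turn (grey lines). The ranges of Fos, Fosb and Fosl1 cross 0, that of Fos running from -0.72 to 1.77, while those of Atf3, Fosl2, Jun, Jund, Egr1 and Egr3 stay on one side.

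For 6 of the 10 members (Fosb, Fosl1, Fosl2, Junb, Jund and Egr1) the RefSeq promoter table of build GRCr8 holds the 250 bases before the gene's start. Those of Egr1 and Jund are printed because they belong to the member with a window whose CKD 2 value stood apart and to the one with the smallest spread in CKD. They were searched on both strands for the AP-1 site TGANTCA, the cyclic AMP response element TGACGTCA, the EGR site GCGNGGGCG and the CArG box, the element bound by the serum response factor. Matches to these are in capitals, 5′ to 3′ on the strand of the gene. The first lies at chr18:26736828-26737077 on the plus strand and the second at chr16:18769772-18770021 on the minus strand.
Egr1: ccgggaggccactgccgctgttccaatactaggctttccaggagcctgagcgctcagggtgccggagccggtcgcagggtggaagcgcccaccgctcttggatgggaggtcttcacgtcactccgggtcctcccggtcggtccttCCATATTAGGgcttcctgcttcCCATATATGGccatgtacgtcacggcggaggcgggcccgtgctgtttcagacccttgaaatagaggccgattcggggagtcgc
Jund: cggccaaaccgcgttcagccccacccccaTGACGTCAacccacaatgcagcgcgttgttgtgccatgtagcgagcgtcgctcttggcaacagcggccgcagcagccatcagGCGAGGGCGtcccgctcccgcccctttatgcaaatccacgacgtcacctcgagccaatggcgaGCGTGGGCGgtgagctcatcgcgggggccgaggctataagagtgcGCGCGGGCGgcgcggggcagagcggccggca

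In the Egr1 window the capitals mark 2 CArG boxes, which start 105 and 83 bases before the gene's start. Of all 33469 windows of this length in the table, 1.5% held at least 1 CArG box and 0.0209% held 2 or more. The Jund window had 0 CArG boxes, 1 cyclic AMP response element (in 1.59% of all windows) and 3 EGR sites (at least 1 in 4.29% of all windows). The Fosl2 window held 1 EGR site, and those of Fosb, Fosl1 and Junb held 0 of these 4 motifs. No window of the 6 held TGANTCA, which 6.34% of all windows had. These matches describe letters in the reference and not binding.

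CKD 3 had the lowest value of the CKD libraries in 9 of 9 members, where it was the lowest in 40.1% of all tested genes, and the lowest of all 6 libraries in 6 of 9, against 8.37% of all tested genes. CKD 2 was the highest CKD library in 6 of 9 members (28.3% of all tested genes). The ratio of CKD 2 to the mean of the other CKD libraries was 2.34 for Atf3, 1.94 for Fosb and 1.54 for Jun, but 0.977 for Fosl2 and 0.838 for Egr3, with a median of 0.998 over all tested genes. The low place of CKD 3 was also seen in the lists around these factors. CKD 3 was the lowest CKD library in 8 of 9 tested EGR1 targets (88.9%), 10 of 12 zipper partners and other EGR genes (83.3%) and 2 of 2 EGR corepressors. It was the lowest in 10 of 15 AP-1 targets and 6 of 9 serum response and related factors (66.7% each). The share was 59.3% for other immediate early genes (16 of 27), 55.6% for heat shock genes (5 of 9) and 52.4% for MAP kinases (11 of 21). Beside the 40.1% of all tested genes, these shares fall by small steps and do not split the lists into separate groups. CKD 2 was not always the highest: among the zipper partners and other EGR genes, CKD 1 was the highest CKD library in 7 of 12. Members did not share one order of libraries within CKD beyond the low place of CKD 3. These counts were chosen after the values were seen.

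**Figure D3:**
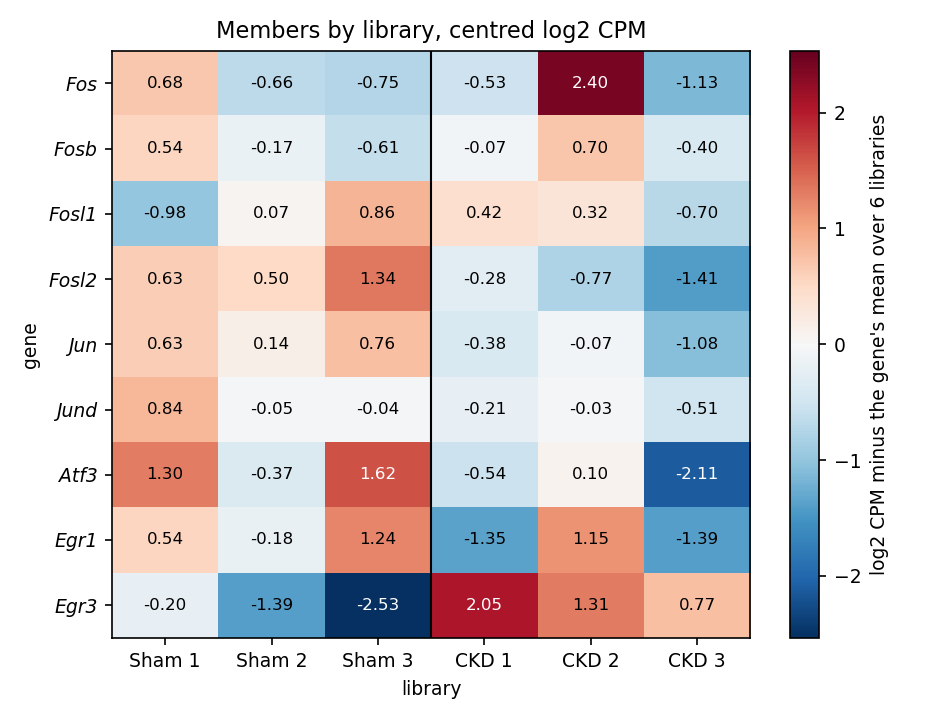
Log2 CPM (prior count of 2) of each member minus its mean over the 6 libraries, with libraries in columns, Sham left and CKD right of the line. Fos in CKD 2 (2.40) and Egr3 in Sham 3 (-2.53) and CKD 1 (2.05) lie far from their means, and CKD 3 is negative for all members except Egr3 (0.77).

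The spread of the members was mostly wide. The edgeR biological coefficient of variation, which describes the spread left within groups, was 74.0% for Fos, 60.4% for Egr1, 59.3% for Egr3 and 53.5% for Atf3, beside a median of 32.6% over all tested genes. Fosl2, Jun and Jund, at 33.0%, 31.6% and 30.9%, lay near that median. In 7 of 9 members the value was above it.

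As counts per kilobase, Fosl2 made up 76.1% ± 10.8 of the FOS family in Sham and 46.6% ± 25.02 in CKD, and Fos 19.2% ± 11.4 and 45.1% ± 28.2. By library the Fos share was 31.7%, 16.3% and 9.44% in Sham 1, 2 and 3 and 25.6%, 77.4% and 32.4% in CKD 1, 2 and 3. Only in CKD 2, of the 6 libraries, was Fos rather than Fosl2 the main FOS transcript. The shift of the Fosl2 share by -29.5 percentage points was -15.2 without CKD 2. In the exact two-sided permutation test, which cannot go below p = 0.1 with 3 against 3, the p was 0.2 for Fos and for Fosl2 (0.3 after adjustment over the 8 shares tested).

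Jun made up 31.4% ± 7.60 of the summed Jun and Jund level in Sham and 24.0% ± 3.48 in CKD (exact permutation p = 0.3), with Junb not measurable. Without scaling to length the Jun share was 54.6% in Sham and 45.8% in CKD. By mean share, the larger of Jun and Jund in Sham thus depends on the length used. In CKD Jund was the larger with and without that scaling (76.0% and 54.2%). Egr3 made up 0.344%, 0.171% and 0% of the summed Egr1 and Egr3 level in Sham 1, 2 and 3 and 6.81%, 0.744% and 2.81% in CKD 1, 2 and 3, without overlap (exact permutation p = 0.1, the smallest possible, and 0.3 adjusted). Summed over the family, Jun and Jund stood at 313 ± 90.5 CPM per kilobase in Sham and 196 ± 39.98 in CKD (exact permutation p = 0.1). The groups did not overlap in this sum, but the gap was narrow, between 242 in Sham 2 and 234 in CKD 2. With library totals alone Jun and Jund each overlapped between the groups, and the gap in the sum depends on the TMM scaling. The FOS and EGR sums overlapped (exact permutation p = 0.5 each). Of 4 such sums tested, the one over all members was 439 ± 118 CPM per kilobase in Sham and 267 ± 97.9 in CKD (exact permutation p = 0.2).

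**Figure D4:**
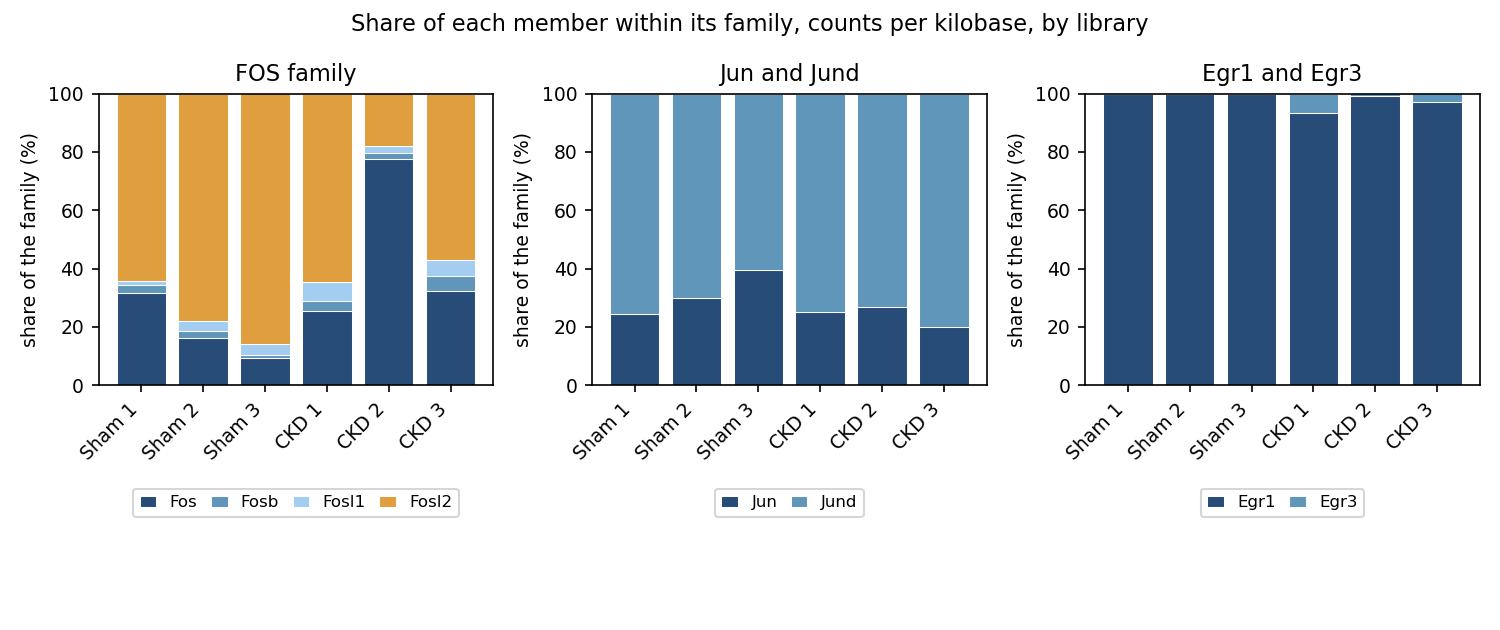
Share of each member in the counts per kilobase of its family, in percent, for each of the 6 libraries (Junb, at 0, is left out). Fosl2 is the largest part of the FOS bars except in CKD 2, where Fos makes up 77.4%, and Egr3 becomes visible only in the CKD bars, at 0.744% to 6.81%.

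Of all 104 tested genes in 8 lists around these factors, 10 rose and 11 fell in edgeR (20.2%, beside 3.82% of all tested genes), but 0 passed without Sham 2, CKD 1 or CKD 2, 1 passed without Sham 3, 13 without CKD 3 and 39 without Sham 1. The lists were drawn up with earlier results of these data known, so their counts are a description. With library totals alone the median log2 fold change of all tested genes was 0.41, beside -0.01 in the main fit. Of 12 tested zipper partners and other EGR genes, 1 rose and 2 fell (2.67% and 1.15% of all tested genes rose and fell), with a median log2 fold change of 0.50 (0.22 without Sham 1 and 0.92 with library totals alone). Maf, a large MAF factor of macrophages and tubules, rose from 30.7 ± 14.8 to 183 ± 9.76 CPM (log2 fold change 2.57 ± 0.36, edgeR adjusted p = 0.0302). The small MAF genes Maff and Mafk, which lack an activation domain and pair with other zipper proteins, fell, Maff from 54.5, 72.5 and 117 CPM in Sham 1, 2 and 3 to 14.0, 21.8 and 11.9 CPM in CKD 1, 2 and 3 (edgeR adjusted p = 0.0316) and Mafk at -1.75 ± 0.31 in log2 fold change (edgeR adjusted p = 0.0387). Egr2, named after its values were seen, had 2.07, 0.14 and 0.493 CPM in Sham 1, 2 and 3 and 8.44, 14.3 and 3.59 CPM in CKD 1, 2 and 3, a pattern without overlap as in Egr3 (edgeR adjusted p = 0.082).

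The genes of the EGR corepressors, Nab1 and Nab2, had log2 fold changes of -0.14 ± 0.19 and -0.75 ± 0.31 (edgeR adjusted p = 0.7 and 0.195). In edgeR, DESeq2 and limma-voom 0 of 2 passed. At an unadjusted p under 0.05 in edgeR there was 1, against 23.8% of all tested genes. Of 9 serum response and related factors, 1 rose and 1 fell, with a median of 0.10 (-0.02 without Sham 3, 0.20 without Sham 2 and 0.53 with library totals alone). Elk3, an ETS partner of the serum response factor, rose by 1.62 ± 0.24 on the log2 scale, and Mef2d, a MADS-box factor, fell by 1.54 ± 0.25 (edgeR adjusted p = 0.0316 and 0.0336). Srf itself, the serum response factor, had 84.6, 36.8 and 43.4 CPM in Sham 1, 2 and 3 and 63.7, 65.0 and 51.8 CPM in CKD 1, 2 and 3 (edgeR adjusted p = 0.843).

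Of 21 tested MAP kinases and their activators, 0 passed in edgeR or limma-voom. At an unadjusted p under 0.05 in edgeR there were 8, against 23.8% of all tested genes. DESeq2 called 2 higher and 5 lower, against 8.99% and 7.28% of the genes it tested. The median log2 fold change of the 21 genes was -0.41, or 0.02 with library totals alone, a scaling that moved the median of all genes by 0.42. The kinase genes with the smallest p were Mapk7, which encodes ERK5, at 1.07 ± 0.24, and Map2k3, an activator of p38, at -1.03 ± 0.25 (log2 fold change, edgeR adjusted p = 0.0525 and 0.0637). Mapk3, also in this list of 22 genes, was listed at 0 counts in all libraries and could not be assessed.

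Of 27 tested genes of this class that are no members, 7 fell and 0 rose in edgeR, where 1.15% of all tested genes fell. A negative fold change was found in 22 of them (18 with library totals alone). Among all 15371 tested genes it was found in 7761 (3827 with library totals alone). The median log2 fold change of the 27 genes was -0.62, or -1.08 without Sham 1 and -1.05 without CKD 2. With library totals alone it was -0.19, a scaling that moved the median of all tested genes from -0.01 to 0.41. DESeq2 called 12 lower and 1 higher, against 7.28% and 8.99% of the genes it tested. With limma-voom 4 were lower and 0 higher, against 1.27% of all tested genes in either direction. At an unadjusted p under 0.05 in edgeR 12 were lower and 2 higher, against 23.8% of all tested genes in either direction. Of the 7 that fell, 0 passed without Sham 2, CKD 1 or CKD 2. Dusp1, also in this list of 28 genes, had no row under that symbol and could not be tested.

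Csrnp1, a nuclear protein induced by AXIN1, fell from 84.4, 82.1 and 103 CPM in Sham 1, 2 and 3 to 15.8, 27.3 and 16.3 CPM in CKD 1, 2 and 3 (edgeR adjusted p = 0.0278). Gadd45g and Gadd45b, stress sensors that bind MAP kinase kinase kinases, fell (log2 fold changes -2.70 ± 0.36 and -1.81 ± 0.35, edgeR adjusted p = 0.0285 and 0.0415). Per1, a clock gene that also answers to glucocorticoids, and Dusp5, a phosphatase that turns off ERK, fell as well (log2 fold changes -1.86 ± 0.29 and -2.16 ± 0.35, edgeR adjusted p = 0.0318 and 0.0352). Zfp36, which encodes the mRNA decay factor tristetraprolin, and Btg2, an antiproliferative gene, also fell (log2 fold changes -1.52 ± 0.30 and -2.06 ± 0.44, edgeR adjusted p = 0.0433 and 0.0484). In all 7 the groups did not overlap, where 12.4% of all tested genes were lower without overlap. Since the 7 were picked by p in these same libraries, this adds no separate support. Over all 27 genes, called or not, CKD 2 was the highest CKD library in 16 (59.3%, beside 28.3% of all tested genes). Whether the members and these genes differ in their response was not tested.

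**Figure D5:**
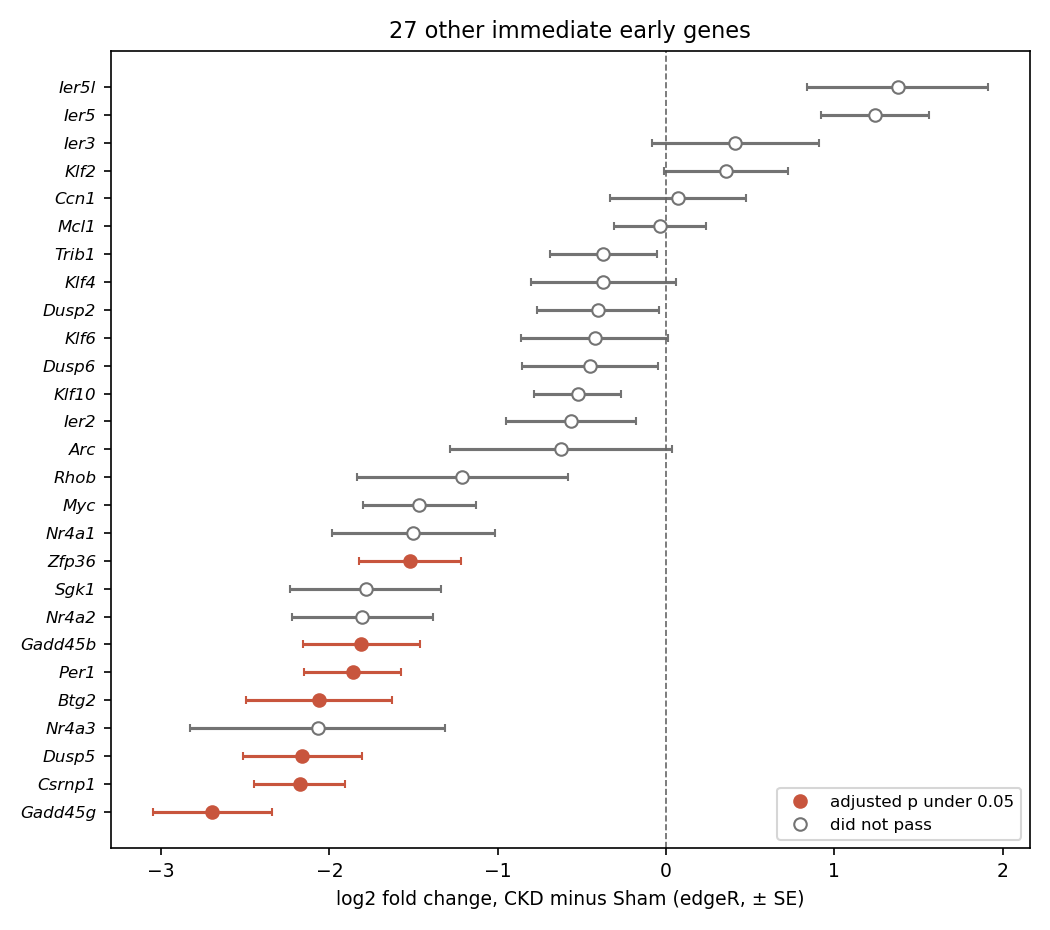
Log2 fold change (CKD minus Sham, ± SE) of the 27 other immediate early genes tested, filled red where the edgeR adjusted p is under 0.05. The 7 filled points lie between -2.70 (Gadd45g) and -1.52 (Zfp36), and 5 genes lie above 0, none of them filled.

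Of 15 tested genes known as AP-1 targets, 6 rose and 1 fell in edgeR, where 2.67% and 1.15% of all tested genes did, namely Cd44, Vim, Timp1, Lif, Mmp12 and Spp1 against Areg. DESeq2 called 7 higher and 4 lower, against 8.99% and 7.28% of the genes it tested. With limma-voom 1 was higher and 0 lower, against 1.27% of all tested genes in either direction. At an unadjusted p under 0.05 in edgeR 8 were higher and 4 lower, against 23.8% of all tested genes in either direction. The list's median log2 fold change was 0.89. The hyaluronan receptor gene Cd44 rose from 13.4, 15.5 and 12.1 CPM in Sham 1, 2 and 3 to 98.4, 66.7 and 36.9 CPM in CKD 1, 2 and 3 (edgeR adjusted p = 0.0323). Lif, a cytokine of the interleukin-6 family, rose from 1.07, 0.489 and 1.41 to 14.4, 20.1 and 3.33 CPM (edgeR adjusted p = 0.0438). Mmp12, the macrophage elastase, rose by 3.87 ± 0.80, and Areg, an EGF receptor ligand, fell by 3.04 ± 0.51 (log2, edgeR adjusted p = 0.0474 and 0.0365). The other 3, Vim (vimentin), Timp1 (an inhibitor of matrix proteases) and Spp1 (osteopontin), rose by 2.12 ± 0.35, 2.39 ± 0.43 and 4.46 ± 0.93 (log2, edgeR adjusted p = 0.0351, 0.0394 and 0.0482). Of the 6 that rose, all had their lowest CKD value in CKD 3 except Mmp12, where CKD 2 was the lowest.

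Of 9 tested genes known as EGR1 targets, 2 rose and 0 fell in edgeR, where 2.67% and 1.15% of all tested genes did. DESeq2 called 4 higher and 0 lower, against 8.99% and 7.28% of the genes it tested. With limma-voom 1 was higher and 0 lower, against 1.27% of all tested genes in either direction. At an unadjusted p under 0.05 in edgeR 4 were higher and 1 lower, against 23.8% of all tested genes in either direction. The list's median log2 fold change was 0.68 (0.41 without Sham 2 and 1.10 with library totals alone). Pdgfb, a platelet-derived growth factor chain, had 8.27, 11.6 and 15.5 CPM in Sham 1, 2 and 3 and 65.9, 58.7 and 35.3 CPM in CKD 1, 2 and 3, and Tgfb1, the profibrotic cytokine, rose by 1.81 ± 0.31 (log2, edgeR adjusted p = 0.0316 and 0.0365). Egr1 itself overlapped between the groups, at 84.3 to 226 CPM in Sham and 36.5 to 212 CPM in CKD, the highest CKD value being that of CKD 2. Both target lists also hold genes that macrophages and other infiltrating cells express. What sets the levels of these targets was not tested.

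The summed level of 6 macrophage markers was 31.0 to 103 CPM in Sham and 189 to 381 CPM in CKD (3 of 6 rose), and that of 5 T cell markers 5.31 to 8.00 and 19.3 to 39.8 CPM (2 of 5 rose). Smooth muscle and fibroblast markers (1 of 7 rose) summed to 209 to 360 CPM and 618 to 845 CPM, and B and plasma cell markers (1 of 4 tested rose) to 7.97 to 31.7 CPM and to at least 63.3 CPM. Collecting duct markers (0 of 5 passed in edgeR) summed to 642 to 2598 CPM in Sham and 398 to 455 CPM in CKD. The sums overlapped for the markers of proximal tubule (4573 to 15210 and 8006 to 11150 CPM), thick ascending limb (3277 to 9367 and 1394 to 3584 CPM), podocytes, endothelium, neutrophils and red blood cells. No marker of these lists was at 0 in all libraries. Of 9 tested heat shock genes 0 passed in edgeR, DESeq2 or limma-voom (1 at an unadjusted p under 0.05 in edgeR), with a median log2 fold change of -0.23 (0.19 with library totals alone, and from -0.59 without Sham 2 to -0.07 without CKD 3), and Bag3 and Hspa8, the co-chaperone and chaperone with the smallest p, stood at -0.89 ± 0.31 and -0.62 ± 0.39 (edgeR adjusted p = 0.142 and 0.37). The mitochondrial share of counts was 14.4% to 37.9% in Sham, highest in Sham 2, and 8.83% to 10.8% in CKD. The part of these differences in the members' values was not tested.

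Over the 6 libraries, the genes whose log2 CPM followed Fos most closely, among 9616 with a symbol and a mean log2 CPM of at least 3, were Or2b4 (Pearson r = 0.96), Syne4 (0.96) and Sft2d1 (0.93), and for Egr1 they were Rtl8a (0.98), Nufip1 (0.93) and Rab9a (0.93). These values describe likeness of pattern over few libraries that differ in group and makeup. They are the highest picked from 9616 genes, so high values of r are no separate support. Nor do they measure the size of a change. Sft2d1 ran only from 36.2 to 44.6 CPM and Rtl8a from 20.69 to 27.45 CPM. Fos ran from 5.28 to 62.2 CPM and Egr1 from 36.5 to 226 CPM. For Fos the likeness rests on CKD 2: Or2b4, annotated as an olfactory receptor, had 48.6 CPM there and 6.57 to 10.8 CPM in the other 5 libraries.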

How the data were processed

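RNA of renal tissue was sequenced in 3 Sham and 3 CKD libraries, grouped by their titles. Whole-number raw counts were deposited by the authors for each gene, with gene lengths, in a single table, and 0 of its columns belong to other series. Per the submitters' processing notes, fastp 0.20.1, HISAT2 2.1.0 and HTSeq 0.11.2 were used and the build was Rnor_6.0; roles and strand setting are not given in the sources used here. Rows with a gene ID but no gene name took 0.457% to 0.608% of counts and were kept.

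Genes were kept by filterByExpr (minimum count 10, minimum total 15), which left 15371. A quasi-likelihood model with group as its only term was fitted (edgeR 4.0.16, limma 3.58.1, R 4.3.3) with TMM factors (0.837 to 0.893 in Sham, 1.13 to 1.19 in CKD) and robust empirical Bayes, with Benjamini-Hochberg adjustment over every gene tested. CPM are counts over TMM-scaled library sizes; log2 CPM used a prior count of 2. The fit was tested on simulated data. Named genes were the members, the 2 with the smallest p and all past the threshold of each pathway list, and the 3 most like Fos and Egr1; Egr2 and Srf were added after their values were seen. Members, lists and tests were chosen with earlier results of these data known. Limits at 0 cover counting error only, and reads carry no molecular identifiers. The SD and SE values include the spread among libraries. Each SE of an edgeR log2 fold change was derived from the test, as the size of the fold change over the square root of its quasi-likelihood F statistic. Alternatives were other scalings and filters, no robust step, DESeq2 1.42.0, limma-voom, leaving out each library, a replicate block and, added after seeing the data, removal of mitochondrial genes.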

Additional observations from a re-analysis of the deposited data

How the results depend on the processing

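Over all genes, 587 passed (411 higher, 176 lower). The count was 2228 with library totals alone (2047 higher), 2497 in DESeq2 (1379 higher, 1118 lower), 195 in limma-voom (120 higher, 75 lower) and 0 to 1711 with 1 library left out (0 to 789 higher, 0 to 922 lower). Members past the threshold numbered 1 with RLE factors, with no low count filter and with mitochondrial genes removed (1 lower each, Fosl2), 1 with library totals alone (1 higher, Egr3), 4 in DESeq2 (1 higher, 3 lower) and 0 to 2 with 1 library left out (0 to 1 higher, 0 to 1 lower). Pathway list genes past it, 21 in all (10 higher, 11 lower), numbered 34 with library totals alone (23 higher), 45 in DESeq2 (20 higher, 25 lower), 10 in limma-voom (4 higher, 6 lower) and 0 to 39 with 1 library left out (0 to 16 higher, 0 to 23 lower). The cause of these changes was not tested.

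The labels do not say that the replicate numbers pair the samples. Deviations from the group means of same-numbered libraries had correlations of -0.206, 0.00452 and -0.157. No Sham library correlated best with the CKD library of its own number. Such deviations cancel within each group, so these correlations are tied to one another and cannot decide whether the samples were paired. With the replicate block 10 genes passed (4 higher, 6 lower), of which 0 were members and 0 were pathway list genes (0 higher, 0 lower).

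The sign of the log2 fold change turned for Fosl1 (0.34 with library totals alone, 0.047 in limma-voom, 0.043 with the replicate block, 0.40 without Sham 3 and 0.22 without CKD 3, with -0.48 to 0.40 over single libraries left out), for Fos (-0.72 without CKD 2, up to 1.77 without Sham 1) and for Fosb (-0.14 without Sham 3, -0.23 without CKD 2, up to 0.50 without Sham 1). In the other 6 tested members it kept its sign under all alternatives run. The median of the members ran from -0.75 to -0.26 with 1 library left out. It was -0.13 with library totals alone, where the median of all genes moved by 0.42. With 1 library left out, differences in share (CKD minus Sham) ran from 9.84 to 35.7 percentage points for Fos, -38.5 to -15.2 for Fosl2, -10.8 to -3.25 for Jun and 1.61 to 4.64 for Egr3. Depth limits Egr3, with 9 counts in all of Sham.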
